A study of Mus musculus with 4 samples.

Results

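Mesothelial cells are the flat epithelial cells that cover the lung surface, and 201 of the 9391 good-quality barcodes (11118 barcodes in all) were taken as such because they held at least 5 UMIs each of Msln and Upk3b, which encode mesothelin and a uroplakin of that surface, and none of Ptprc (CD45) or Pecam1 (CD31). UMIs are molecular tags, so each counts 1 captured transcript. Of the 201 cells, 100 with at least 1000 Egfp UMIs per 1000000 UMIs of the cell (counts per 1000000, CPM) were called reporter-high and 89 with under 200 CPM reporter-low, and the 12 between were left out of the comparison. The cells came from lungs of mice of about 8 weeks that had been dosed with tamoxifen. All of them carried 1 copy of a Cre recombinase fused to a mutated oestrogen receptor at the Gli1 gene (Gli1_Cre_ERT2/WT) and 1 copy of the membrane tdTomato/membrane EGFP reporter at Rosa26 (Rosa_mTmG/WT). Sorting kept cells negative for CD45, a leukocyte protein, and CD31, an endothelial protein. The labels name 2 strains, C57BL/6J and B6D2F1/J, for the same samples, and no undosed or Cre-free mice are among the samples analysed here. Reporter-high and reporter-low cells therefore share genotype, treatment and age and differ in the Egfp level that chose them.

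Hedgehog ligands bind the receptor Ptch1 and so release Smo, which lets GLI transcription factors act, and Gli1, Ptch1 and Hhip are textbook targets of the pathway, of which Ptch1 and Hhip in turn restrain it. In the mTmG reporter, a cell makes tdTomato until Cre removes that cassette, and it and its daughters make EGFP from then on. Egfp in these mice therefore records Cre activity from the Gli1 gene in the past and need not follow the present level of Gli1. In the lung, mesothelial cells line the pleural surface, secrete lubricating proteoglycans and share several genes with fibroblasts.

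Both sets came from 1 pooled matrix. The 4 samples have the same labels, and no file used here assigns a cell to a sample, so there are no replicates and no test. Intervals are 95% intervals for counting error only, and a ratio is the summed CPM of reporter-high over that of reporter-low cells. Reporter-high cells held 983887 UMIs in sum (median 9511.5 per cell, range 2401 to 23119), and reporter-low cells held 887754 (median 9761, range 2245 to 28770). The medians of genes per cell were 3248.5 and 3305, and those of mitochondrial UMIs 3.75% and 3.42%. Depth and these signs of RNA quality were thus close in the 2 sets.

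The promoters of 4 genes are printed because the results turn on their genes. Hhip and Ptch1 are the hedgehog targets that stood on opposite sides of a ratio of 1, and Igfbp4 and Fndc1 had among the lowest ratios. Each is the stretch of 250 bases before the RefSeq start (GRCm38.p6), written 5′ to 3′ on the gene's strand, and capitals mark TATAAA or its reverse complement TTTATA.
Hhip (chr8:80058009-80058258, minus strand): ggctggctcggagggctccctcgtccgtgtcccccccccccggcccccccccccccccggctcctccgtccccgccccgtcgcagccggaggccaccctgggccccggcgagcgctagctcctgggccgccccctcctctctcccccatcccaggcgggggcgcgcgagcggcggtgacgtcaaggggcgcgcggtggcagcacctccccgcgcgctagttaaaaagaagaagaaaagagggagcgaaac
Ptch1 (chr13:63565736-63565985, minus strand): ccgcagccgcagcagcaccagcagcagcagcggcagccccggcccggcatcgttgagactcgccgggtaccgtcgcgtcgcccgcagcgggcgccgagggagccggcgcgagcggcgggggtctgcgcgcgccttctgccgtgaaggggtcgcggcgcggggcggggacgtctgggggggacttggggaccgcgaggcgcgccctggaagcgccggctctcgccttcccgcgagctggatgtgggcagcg
Igfbp4 (chr11:99040994-99041243, plus strand): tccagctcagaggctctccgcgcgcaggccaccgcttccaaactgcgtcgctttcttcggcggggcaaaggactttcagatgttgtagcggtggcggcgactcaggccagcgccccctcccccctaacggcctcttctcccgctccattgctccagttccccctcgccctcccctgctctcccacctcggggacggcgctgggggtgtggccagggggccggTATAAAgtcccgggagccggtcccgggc
Fndc1 (chr17:7827303-7827552, minus strand): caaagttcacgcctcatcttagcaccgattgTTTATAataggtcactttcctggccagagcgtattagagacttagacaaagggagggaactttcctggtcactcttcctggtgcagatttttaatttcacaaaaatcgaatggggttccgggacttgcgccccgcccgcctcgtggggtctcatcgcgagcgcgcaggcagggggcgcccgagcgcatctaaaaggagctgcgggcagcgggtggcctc
RefSeq promoters were matched for 31 of the 48 named and hedgehog genes. The motif TATAAA on either strand was found 1 time each in the windows of Igfbp4 and Fndc1 and in neither of the others, and 12.4% of all 32851 promoter windows hold it. The GLI motif GACCACCCA, or TGGGTGGTC on the other strand, was in none of the 4 windows and is in 0.225% of all. In the GENCODE M21 annotation of mm10, Hhip spans chr8:79965851-80058006 on the minus strand, Ptch1 chr13:63508328-63573598 on the minus strand, Igfbp4 chr11:99041244-99054392 on the plus strand and Fndc1 chr17:7738569-7827302 on the minus strand. The RefSeq start used for Ptch1 thus lies inside the GENCODE span of the gene.

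The Egfp values that chose the cells fell into separate ranges. The level per cell ran from 1105 to 8033 CPM in reporter-high cells (median 3156) and from 0 to 173 CPM in reporter-low cells, of which 63 had no Egfp UMI. The 12 cells between ran from 201 to 720 CPM. Around the upper threshold the nearest cells lay at 720 and 1105 CPM, and around the lower one at 173 and 201 CPM. The rule set this separation, and it is given as a description. A further 8 barcodes passed all but the requirement for no Ptprc and Pecam1.

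Reporter-high cells were 49.8% of mesothelial cells (Clopper-Pearson interval 42.6 to 56.9%). The same threshold took 45.5% of 3146 adventitial fibroblasts (Pi16 and Clec3b), 32.7% of 2786 alveolar fibroblasts (Inmt and Npnt) and 43.1% of 459 Hhip-high cells. Alveolar type 2 cells (Sftpc and Lamp3) and ciliated cells (Tppp3 and Foxj1) are epithelial, and in them it took 3.17% of 1958 (2.44 to 4.04%) and 2.33% of 258 (0.858 to 4.99%). Over all their cells the summed Egfp levels were 194 and 143 CPM. Reporter-low mesothelial cells had 36.0 CPM (24.7 to 50.9), a level limited by the rule that chose them, so it was not compared with the epithelial ones.

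**Figure D1:**
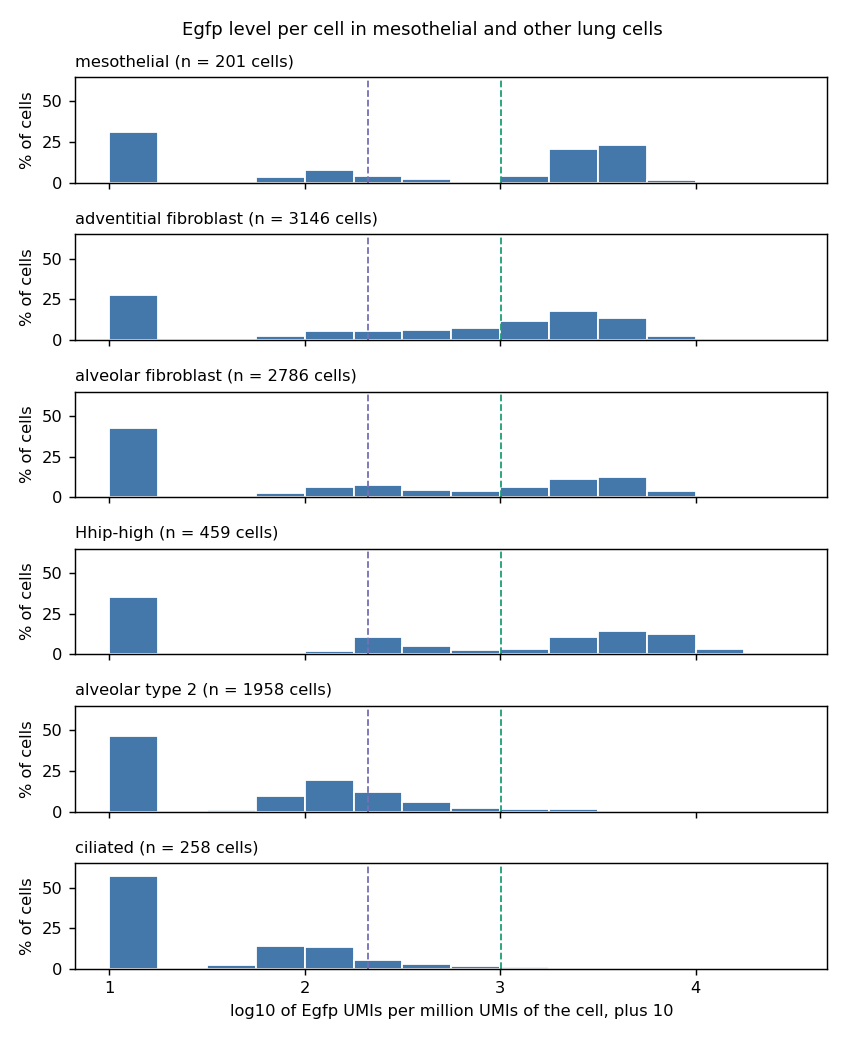
Percent of cells (vertical axis) by log10 of Egfp CPM plus 10 (horizontal axis) in mesothelial cells and 5 other sets, with dashed lines at the 200 and 1000 CPM thresholds. Of the 201 mesothelial cells, 89 lie under 200 CPM (63 of them at 0), 12 between the thresholds and 100 above 1000 CPM. Few alveolar type 2 and ciliated cells lie above 1000 CPM.

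TdTomato, the other product of the reporter and no part of the rule, was lower in reporter-high cells. It gave 1 UMI in reporter-high cells (1.02 CPM, interval 0.0257 to 5.66), 4 in the cells between and 10 in 9 of the 89 reporter-low cells (11.3 CPM, 5.40 to 20.7), a ratio of 0.0902 (0.00208 to 0.634). In the same contrast the ratio was 0.215 in adventitial fibroblasts, 0.115 in alveolar fibroblasts and 0.0584 in Hhip-high cells. Few UMIs of this transcript were captured in any set, and 80 of the 89 reporter-low cells had none.

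The 2 sets were alike in most genes measured. Of 7102 genes with at least 30 UMIs over both sets, 112 (1.58%) had a ratio of 2 or more, 87 (1.23%) a ratio of 0.5 or less and 97.2% lay between. The counting interval lay above 1 as well for 99 genes at 2 or more (1.39%) and below 1 for 78 at 0.5 or less (1.1%). The median ratio was 1.003, and 5% of genes lay below 0.650 and 5% above 1.55. Without the cell with the most UMIs of a gene in each set, 102 of the 112 still had a ratio of 2 or more and 67 of the 87 one of 0.5 or less.

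**Figure D2:**
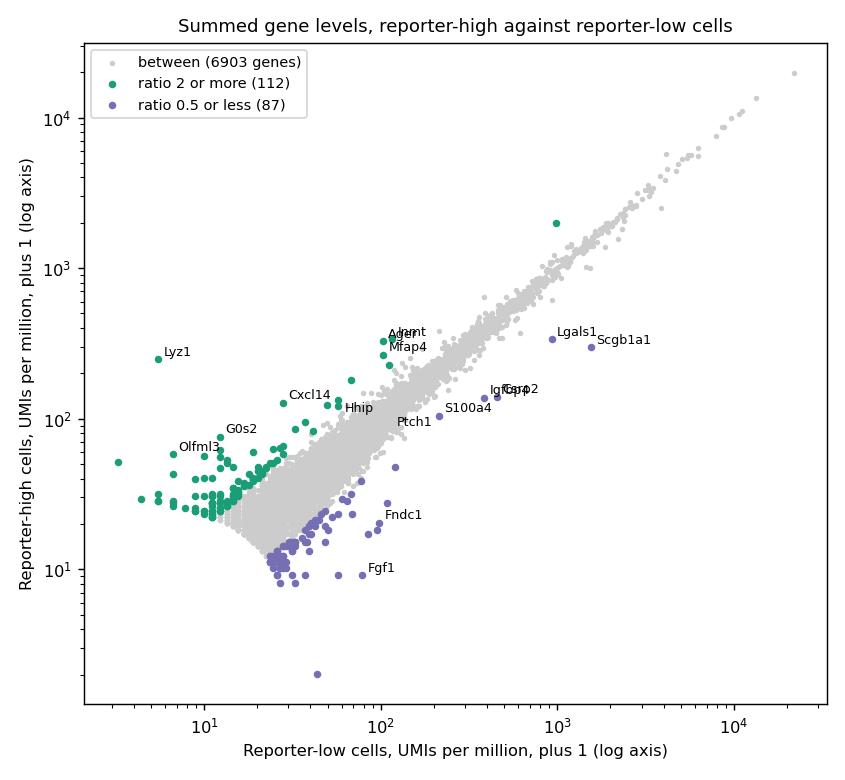
Summed level of each of 7102 genes in CPM plus 1 in reporter-low (horizontal, log axis) and reporter-high cells (vertical, log axis), with genes at a ratio of 2 or more or 0.5 or less in colour. Most genes lie on the diagonal, with Lyz1, Olfml3 and G0s2 above it and Fgf1, Fndc1 and Lgals1 below.

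The mesothelial label held in both sets. The 5 other mesothelial markers were close in level: Wt1, a transcription factor of the mesothelium, was at 177 and 181 CPM in reporter-high and reporter-low cells (ratio 0.98). Lrrn4, a membrane protein, was at 834 and 819 CPM, and Upk1b, a uroplakin, at 743 and 711 CPM. Nkain4 was at 1167 and 1197 CPM. Krt19, a keratin, was at 836 and 936 CPM. Of the 16 measured genes of a longer mesothelial identity list, 0 had a ratio of 2 or more and 1 of 0.5 or less, against 1.58% and 1.23% of all genes. That gene was Podxl, a surface sialomucin, with 9 and 23 UMIs (ratio 0.353, 0.144 to 0.792). A group of 9 reporter-low cells described further on held 52.2% of its reporter-low UMIs. Krt18, also a keratin, was at 246 and 335 CPM (ratio 0.735, 0.618 to 0.874), and Krt7 at 601 and 540 CPM (1.11, 0.985 to 1.26). In the remaining cells described further on, the ratios were 0.817 (0.658 to 1.01) for Krt18 and 1.14 (0.998 to 1.30) for Krt7. In the authors' deposited table, which lists 17 clusters, cluster 15 was picked because its Msln fold change was the highest. Its log2 fold changes were 9.17 for Msln, 9.72 for Upk3b and 10.2 for Slurp1, a small secreted protein. The Msln value is thus set by that pick. No cell of either set was linked to this cluster, so its values are a description and do not bear on the label.

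Among hedgehog genes, Hhip was higher and Ptch1 lower in reporter-high cells. Hhip, which encodes a membrane protein that binds hedgehog ligands, had 102 UMIs in 36 of 100 reporter-high cells and 51 in 16 of 89 reporter-low cells (104 and 57.4 CPM, ratio 1.80, interval 1.28 to 2.58). Ptch1, the receptor, had 82 UMIs in 44 reporter-high cells and 101 in 50 reporter-low cells (83.3 and 114 CPM, ratio 0.733, 0.541 to 0.990). Per cell, Hhip ran from 0 to 35 UMIs in reporter-high cells and Ptch1 from 0 to 8, with a median of 0 for both, so the sets overlapped.

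The co-receptors Boc, Cdon and Gas1 had ratios of 1.54 (1.07 to 2.25), 1.14 (0.913 to 1.42) and 1.07 (0.982 to 1.17). Smo, which passes the signal on, was at 281 and 266 CPM (ratio 1.06). The GLI transcription factor Gli2 had 19 and 13 UMIs (1.32, 0.618 to 2.91), Foxf1, a transcription factor and hedgehog target in lung mesenchyme, had 57 and 60 (0.857, 0.586 to 1.25), and Disp1, which releases hedgehog ligands, had 17 and 14 (1.10). Of 18 hedgehog genes, 9 reached 30 UMIs and 0 of the 9 passed a ratio of 2 or 0.5, where 97.2% of all genes lay between. The median ratio was 1.10, against 1.003 for all genes. Gli1, the gene that carries the Cre, had 7 and 5 UMIs (7.11 and 5.63 CPM), which does not allow the sets to be told apart. Shh and Dhh, both ligands, had no UMI in either set, and Ihh, the other ligand, had 1 UMI in reporter-low cells.

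One cell held 34.3% of the Hhip UMIs of reporter-high cells and another 43.1% of those of reporter-low cells. Without them the Hhip ratio was 2.07. It was 1.09 among cells with at most 5% mitochondrial UMIs, and 3.58 against cells with no Egfp UMI. The Ptch1 ratio was 0.706 without the top cells and 1.37 when each cell was thinned at random to 2000 UMIs. After such thinning Ptch1 had a UMI in 18 of 100 reporter-high and 11 of 89 reporter-low cells, so the thinned value rests on few UMIs.

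In fibroblasts and Hhip-high cells the same Egfp thresholds gave another picture for Ptch1. Its ratio was 1.55 (1.46 to 1.64) in adventitial fibroblasts, 1.95 (1.81 to 2.11) in alveolar fibroblasts and 2.87 (2.29 to 3.64) in Hhip-high cells. These intervals do not overlap that of mesothelial cells, though the difference between kinds of cells was not tested. Ptch1 was also above 1 in alveolar type 2 cells (3.85, 3.09 to 4.77) and ciliated cells (5.72, 2.97 to 10.3). Only 62 and 6 of these epithelial cells were reporter-high, and Dcn had ratios of 7.58 and 14.1 in them. The part of RNA from other cells in these ratios was not tested. Hhip had ratios of 2.08 in adventitial and 2.28 in alveolar fibroblasts. In alveolar type 2 cells the Hhip ratio was 13.5 (11.2 to 16.2) and in ciliated cells 2.93 (1.47 to 5.32), with the same limits as for Ptch1. Hhip had a ratio of 0.655 in Hhip-high cells, which were chosen by a minimum of 10 Hhip UMIs.

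**Figure D3:**
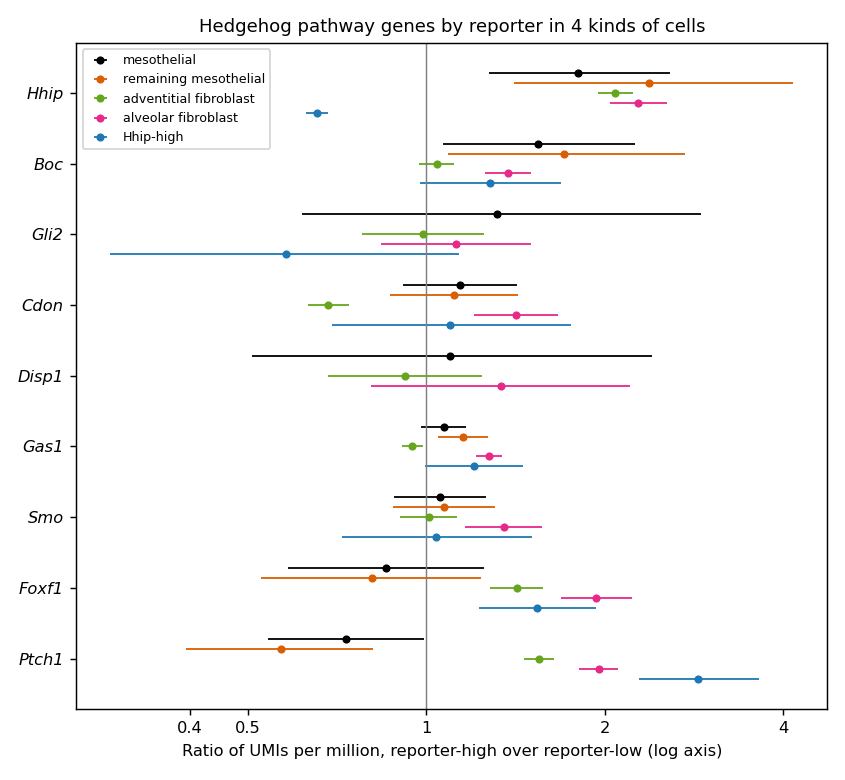
Ratio of CPM, reporter-high over reporter-low (log axis), for the hedgehog genes with at least 30 UMIs, in mesothelial cells, in the remaining mesothelial cells described later in the text and in 3 other sets (adventitial fibroblasts, alveolar fibroblasts and Hhip-high cells), with 95% counting intervals as bars. Ptch1 lies below 1 in mesothelial cells (0.733) and above 1 in the 3 other sets (1.55 to 2.87).

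Most of the genes with the highest ratios were concentrated in a few cells that also carried alveolar fibroblast RNA. Olfml3, a secreted matrix protein, had 56 UMIs in 12 reporter-high cells and 5 UMIs in 4 reporter-low cells (56.9 and 5.63 CPM, ratio 10.1, 4.08 to 32.3). G0s2, an inhibitor of fat breakdown, had 74 and 10 UMIs (75.2 and 11.3 CPM, ratio 6.68, 3.43 to 14.5). Cxcl14, a chemokine, had 125 and 24 UMIs (127 and 27.0 CPM, ratio 4.70, 3.02 to 7.61). In all 3 the median cell of both sets had 0 UMIs.

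Inmt, a methyltransferase typical of alveolar fibroblasts, was at 335 and 115 CPM (ratio 2.92, 2.33 to 3.68), and Mfap4, a microfibril protein, at 264 and 103 CPM (2.58, 2.02 to 3.31). Dpep1, a dipeptidase, had a ratio of 5.41, Ppp1r14a, an inhibitor of myosin phosphatase, 6.20, and Spon2, a matrix protein, 4.87. Sept4, a septin, had a ratio of 4.18, and Gyg, which primes glycogen synthesis, 4.02. Cebpd, a transcription factor, had a ratio of 2.71. The other names on this list rested on fewer cells. Lyz1, a lysozyme, had 98.4% of its reporter-high UMIs in 1 cell (ratio 54.8, and 1.21 without the top cells), Mmp3, a matrix protease, had 84% in 1 cell (22.6 and 2.43), and Vegfa, an endothelial growth factor, had 57.8% in 1 cell (4.06 and 2.14). Ager, an alveolar type 1 marker, had a ratio of 3.22 with 45.5% of its reporter-high UMIs in 1 cell.

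A group of 10 reporter-high cells held over 50% of the reporter-high UMIs of 12 of these 15 genes. They passed the thresholds for alveolar fibroblasts (at least 5 Inmt and 2 Npnt UMIs), as did 2 reporter-low and 2 intermediate cells. These 10 of 100 cells held 15.6% of the UMIs of reporter-high cells but 87.5% of Olfml3, 87.8% of G0s2, 93.3% of Dpep1, 91.8% of Inmt, 82.4% of Cxcl14, 81.9% of Mfap4 and 86.9% of Tcf21, a fibroblast transcription factor. They held 65.3% of Gyg and 58.2% of Cebpd, but 11.1% of Vegfa, 3.43% of Ager and none of Lyz1. Their median depth was 14567.5 UMIs against 9511.5 for all reporter-high cells. Inmt is in the threshold that chose these 10 cells, so its share there is in part set by that choice.

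The 8 alveolar fibroblast markers summed to 5027 CPM in those 10 cells, 1099 CPM in the other 90 reporter-high cells and 1294 CPM in reporter-low cells. Over all reporter-high cells the sum was 1714 CPM (420 to 8920 per cell), and 3 of its 6 measured members had a ratio of 2 or more. Scrublet, which scores barcodes for resemblance to simulated doublets, called 15 of the 100 reporter-high cells (8.65 to 23.5%), 6 of the 89 reporter-low cells (2.51 to 14.1%) and 4.88% of all kept barcodes. Cells that passed a threshold of another type or were called doublets numbered 19 of 100 and 10 of 89. The 19 held 27.8% of the UMIs of reporter-high cells, but 80% of Vegfa, 60.7% of Ager and 98.4% of Lyz1. Without the 19 and 10 cells, 58 of the 6131 genes that still reached 30 UMIs (0.946%) had a ratio of 2 or more, against 112 of 7102 (1.58%). Cxcl14 then had a ratio of 0.958, Spon2 0.903 and Inmt 0.703. Inmt is in a threshold that chose the cells left out, so its ratio after that is in part set by the choice. Without cells with at least 3 UMIs of 6 fibroblast genes (Pi16, Scara5, Inmt, Npnt, Fgfr4 and Itga8) 43 and 38 cells were left, and 48 of 3560 genes (1.35%) had such a ratio.

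Of the 15 genes with the lowest ratios, 7 had over 50% of their reporter-low UMIs in 9 cells described further on. Fgf1, a fibroblast growth factor, had 8 UMIs in 5 reporter-high cells and 69 UMIs in 12 reporter-low cells (8.13 and 77.7 CPM, ratio 0.105, 0.0434 to 0.218). Fndc1, a protein with fibronectin domains, had 19 and 86 UMIs (19.3 and 96.9 CPM, ratio 0.199, 0.114 to 0.330), and Enpp2, the enzyme that makes lysophosphatidic acid, 17 and 84 (17.3 and 94.6 CPM, ratio 0.183, 0.102 to 0.310). UMIs of each of the 3 were in at most 12 of the 89 reporter-low cells, so most cells of both sets had none.

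Lgals1 and Lgals7, both galectins, were at 336 and 929 CPM (ratio 0.362, 0.318 to 0.412) and at 26.4 and 108 CPM (0.244, 0.152 to 0.380). Csrp2, a LIM domain protein, was at 138 and 454 CPM (0.304, 0.249 to 0.371), and Igfbp4, which binds insulin-like growth factors, at 137 and 385 CPM (0.356, 0.290 to 0.436). Dcn, the proteoglycan decorin, had a UMI in every cell of both sets and was at 2490 and 3847 CPM (0.647, 0.614 to 0.682). In the remaining cells described further on, its ratio was 0.921 (0.862 to 0.984). The Lgals1- and Csrp2-high cells described further on held 33.8% of its reporter-low UMIs. Its median was 21 UMIs per reporter-high cell and 24 per reporter-low cell outside that group.

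The remaining low names were less bound to the Lgals1- and Csrp2-high cells. S100a4, a calcium-binding protein, was at 104 and 213 CPM (ratio 0.487, 0.379 to 0.623), Lmnb1, a lamin of the nuclear envelope, at 17.3 and 49.6 CPM (0.349, 0.187 to 0.623), Cpz, a carboxypeptidase, at 22.4 and 56.3 CPM (0.397) and Axl, a receptor kinase, at 18.3 and 47.3 CPM (0.387). Scgb1a1, the club cell secretoglobin, had 82.5% of its reporter-low UMIs in 1 cell (ratio 0.193, and 1.01 without the top cells), Sec14l3 had 68.9% in 1 cell (0.392 and 0.834) and Tubb4b, a tubulin, 42.7% (0.603 and 0.965). Reporter-low cells with RNA of another type or called doublets held 86.3% of the reporter-low UMIs of Scgb1a1, 94.3% of Sec14l3 and 54.5% of Tubb4b. Ciliated markers were at 169 and 310 CPM in sum, and the part of ciliated RNA in the result was not tested. The club markers without Scgb1a1 itself gave 22 and 42 UMIs (22.4 and 47.3 CPM).

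**Figure D4:**
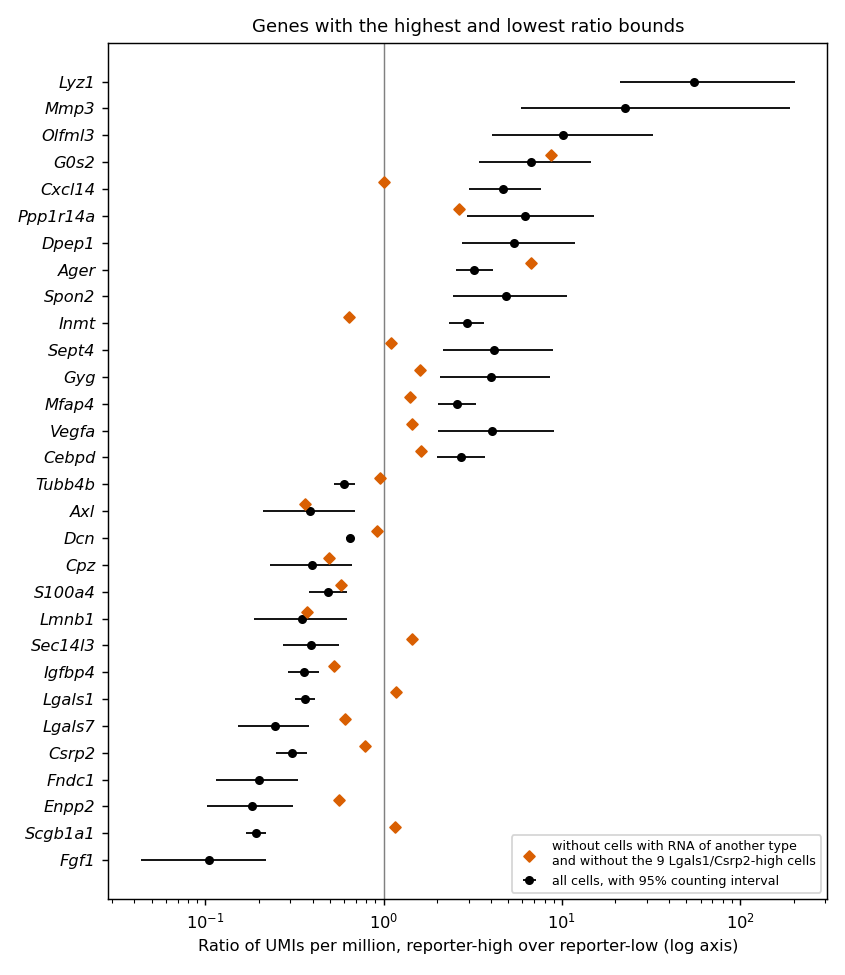
Ratio of CPM, reporter-high over reporter-low (log axis), for the 15 genes with the highest lower bound and the 15 with the lowest upper bound, with 95% counting intervals (black) and the ratio without cells with RNA of another type, called doublets and the 9 Lgals1- and Csrp2-high cells (orange, where at least 10 UMIs remain). Most orange points lie nearer to 1 than the black ones, with G0s2, Ager and Axl among those that do not.

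A group of 9 reporter-low cells held most of the UMIs behind Fgf1, Fndc1, Lgals1 and their like. They have at least 20 Lgals1 and 10 Csrp2 UMIs. Both genes are among the 15 with the lowest ratios, and the thresholds were set after the values per cell had been seen. The group numbers 9 of 89 reporter-low cells (10.1%, 4.73 to 18.3%), 0 of 12 between and 0 of 100 reporter-high cells (0 to 3.62%). This split is in part fixed by that choice, so it is given as a description. The intervals do not measure a difference in share between the sets. The 9 cells held 9.89% of the UMIs of reporter-low cells but 94.2% of Fgf1, 93.0% of Fndc1, 82.3% of Lgals1, 73.8% of Enpp2, 70.2% of Igfbp4, 68.8% of Lgals7 and 64.3% of Csrp2. With both thresholds at 10 UMIs the count was 10 of 89 reporter-low and 1 of 100 reporter-high cells. At least 20 Lgals1 but under 10 Csrp2 UMIs were in 4 reporter-high and 1 reporter-low cells. The 7 genes summed to between 8907 and 29221 CPM in each of the 9 cells, and to at most 5251 CPM in the other 80 reporter-low cells and 5119 CPM in any reporter-high cell. Lgals1 and Csrp2 are among the 7 and chose the cells, and the other genes also come from those with the lowest ratios. The shares and sums are therefore in part set by the choice. Of the 9, 2 also carried RNA of another type or were called doublets, and their median depth of 9135 UMIs was close to that of the rest.

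**Figure D5:**
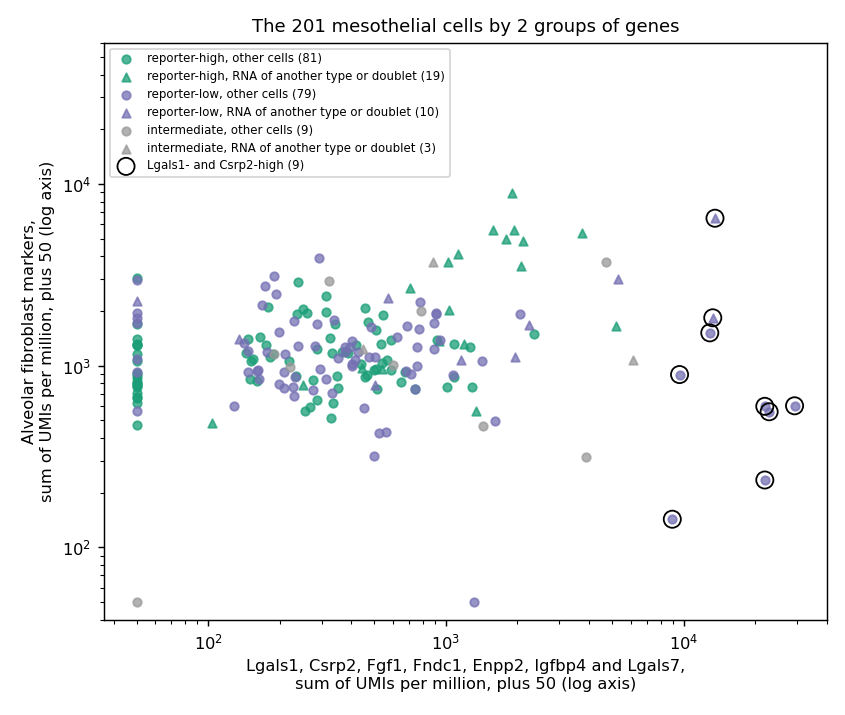
Each of the 201 mesothelial cells by the summed CPM of 7 genes (horizontal, log axis, plus 50) and of the alveolar fibroblast markers (vertical, log axis, plus 50), coloured by reporter set. Triangles carry RNA of another type or are called doublets, and rings mark the 9 reporter-low cells with at least 20 Lgals1 and 10 Csrp2 UMIs, all of which lie at 8907 CPM or more on the horizontal axis. Lgals1 and Csrp2 are among the 7 genes, so the place of the rings is in part set by the choice.

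The 9 cells are described here without a test, since they were chosen on genes of the same cells. Against the other 192 mesothelial cells, 10.7% of 7380 genes had a ratio of 2 or more and 13.2% one of 0.5 or less. They held transcripts of the 5 other mesothelial markers. Wt1 was at 285 CPM, against 170 CPM in the other reporter-low cells, Nkain4 at 1333 against 1183 CPM and Krt19 at 1606 against 863 CPM, while Lrrn4 was at 706 against 831 CPM and Upk1b at 467 against 738 CPM. Msln (5 to 44 UMIs per cell, median 11) and Upk3b (5 to 32, median 18), which chose all the cells, were lower in them than in the other reporter-low cells (medians 37 and 30).

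Slurp1 had no UMI in the 9 cells, against 2217 UMIs in the other 192 (1154 CPM). With a floor of 3 UMIs over the 9 cells, the ratio was at most 0.0296. Slpi, a protease inhibitor of epithelial surfaces, was at 638 CPM against 3154 CPM in the others, Fmo2, a monooxygenase, at 239 against 2599 CPM, Bcam, an adhesion molecule, at 273 against 1534 CPM, and Sfrp1, a Wnt inhibitor, at 34.2 against 459 CPM. Gpc3, a glypican, was at 1230 CPM against 5065 CPM in the other reporter-low cells. Higher in the 9 cells were Dcn (13146 against 2674 CPM in the others), Fbln1, a fibulin (1025 against 134 CPM), Osr1, a transcription factor (262 against 27.6 CPM), and Thbd, thrombomodulin (330 against 53.1 CPM).

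Markers of fibroblasts were also measured in the 9 cells. The 8 adventitial fibroblast markers, Dcn among them, summed to 15219 CPM, against 3843 CPM in the other reporter-low cells. Without Dcn the other 7 summed to 2073 and 1016 CPM. The 8 alveolar ones summed to 1583 CPM. Inmt had UMIs in 1 of the 9 cells. They held 1 Egfp and 0 TdTomato UMIs in all, so both reporter transcripts were near 0 in them.

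Leaving out the 9 cells, cells with RNA of another type and called doublets left 81 reporter-high and 72 reporter-low cells, a comparison chosen after the data had been seen. Of 5966 genes, 52 (0.872%) had a ratio of 2 or more and 58 (0.972%) one of 0.5 or less, of which 23 and 18 were among the 112 and 87 of the full sets. Of those 112 and 87 genes, 38 and 33 still had 30 UMIs in the remaining cells, so 23 of 38 and 18 of 33 passed the same threshold there, and the 74 and 54 genes left had too few UMIs. The median ratio was 1.002. The filter itself used Inmt, Hhip, Pi16, Sftpc, Lgals1 and Csrp2, among others, so ratios of these genes after it are partly set by it.

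In these cells, Hhip had 52 UMIs in 30 of 81 and 21 UMIs in 13 of 72 cells (73.2 and 30.8 CPM, ratio 2.38, 1.41 to 4.16), after 1 cell of each set with 10 or more Hhip UMIs had been removed by the filter. Ptch1 had 51 UMIs in 30 and 86 UMIs in 42 cells (71.8 and 126 CPM, ratio 0.569, 0.395 to 0.814), and Boc 57 and 32 UMIs (1.71, 1.09 to 2.73). Fibroblast markers were not at 0 in the remaining cells: the alveolar ones summed to 1107 and 1193 CPM and the adventitial ones to 3390 and 3431 CPM in reporter-high and reporter-low cells. Their part in the Hhip and Ptch1 ratios was not tested.

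Other genes at a ratio of 2 or more were Klhl24, a Kelch protein of ubiquitin ligases (59 UMIs in 41 and 20 UMIs in 17 cells, ratio 2.83, 1.68 to 4.97), Perp, a desmosomal protein (72 and 30 UMIs, 2.30, 1.49 to 3.66), and Yap1, the Hippo pathway co-activator (40 and 18 UMIs, 2.13, 1.20 to 3.95). Zeb1, a transcription factor of mesenchymal transition, had 42 and 21 UMIs (1.92, 1.11 to 3.41). Ager and Gsn, an actin-severing protein, had ratios of 6.72 and 2.25, with 69.8% and 53.2% of reporter-high UMIs in 1 cell.

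At 0.5 or less were Anxa4, an annexin (25 UMIs in 21 and 62 UMIs in 41 cells, ratio 0.387, 0.233 to 0.625), Cxcl10, an interferon-induced chemokine (26 and 62 UMIs, 0.403, 0.244 to 0.646), Lmnb1 (15 and 39 UMIs, 0.369, 0.189 to 0.685) and Stag1, a cohesin subunit (24 and 53 UMIs, 0.435, 0.257 to 0.717). S100a4 was at 111 and 193 CPM (0.575, 0.429 to 0.765).

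A list of immediate early genes, which are induced within minutes of stimulation or tissue dissociation, and heat shock genes had no member past the thresholds. Of 24 measured, 0 passed a ratio of 2 or 0.5, where 97.2% of all genes lay between. A ratio above 1 was found for 6 of the 24, and the median was 0.904. In the remaining cells 20 of 23 were below 1 with a median of 0.912, while 49.4% of all genes were below 1 there. Fosb, a component of AP-1, was at 1002 and 1536 CPM (ratio 0.652, 0.600 to 0.708), with 0 to 41 UMIs per reporter-high cell (median 7). The other reporter-low cells had 0 to 72 (median 9) and the 9 cells 2 to 38 (median 18). Atf3, a stress-induced transcription factor, was at 614 and 937 CPM (0.655, 0.589 to 0.728). Jun, also of AP-1, had a ratio of 0.712 in the remaining cells and Egr1, a zinc-finger factor, 0.685. The ranges per cell overlapped widely.

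Complement genes, which mark surfaces for immune clearance, were also close to 1. None of 11 measured passed a ratio of 2 or 0.5, where 97.2% of all genes lay between, and the median was 0.910. C4b, the fourth component, was at 1384 and 1871 CPM (ratio 0.740, 0.688 to 0.795), and 0.702 in the remaining cells. Its median was 8.5 UMIs per reporter-high cell (0 to 47), 17 in the other reporter-low cells (0 to 67) and 7 in the 9 cells (1 to 16). Cfb, which starts the alternative pathway, had a ratio of 0.797.

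Over 25 lists of pathways and structures, 18 of 324 measured genes (5.56%) had a ratio of 2 or more, against 1.58% of all genes, and 6 (1.85%) one of 0.5 or less, against 1.23%. The list medians ran from 0.857 for proliferation genes to 1.86 for PDGF, KIT and VEGF genes. In the remaining cells 4 of 270 measured members had a ratio of 2 or more and 4 one of 0.5 or less, against 0.872% and 0.972% of all 5966 genes there. The median of the PDGF, KIT and VEGF list was 1.15 in those cells, with 0 of 4 measured members at 2 or more. In the full sets the 3 members of that list above 2 were Vegfa, Pdgfra, the platelet-derived growth factor receptor of fibroblasts (37 and 13 UMIs, ratio 2.57), and Vegfd, a lymphatic growth factor (27 and 12, 2.03). The 10 cells with alveolar fibroblast RNA held 91.9% of the Pdgfra UMIs of reporter-high cells.

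In the FGF and HGF list, 3 of 11 were at 2 or more and Fgf1 at 0.5 or less. The 3 were Fgfr3, an FGF receptor (29 and 8 UMIs, ratio 3.27), Etv5, a transcription factor downstream of FGF (23 and 8, 2.59), and Spry1, a feedback inhibitor (46 and 17, 2.44), and the same 10 cells held 41.4% of the Fgfr3 and 60.9% of the Spry1 UMIs. All reporter-high cells with RNA of another type or called doublets held 72.4% and 76.1%. Among 18 Wnt genes, 1 was at 2 or more: Wnt7b, a ligand, with 24 and 7 UMIs (3.09, 1.29 to 8.50), of which those 10 cells held 8.33%.

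Matrix genes were mostly near 1. None of 10 interstitial collagens, 17 basement membrane genes and 11 proteoglycans passed a ratio of 2 or 0.5, with medians of 1.13, 1.11 and 0.941. Of all genes, 97.2% lay between these ratios. Col1a1, a chain of type I collagen, was at 539 and 644 CPM (ratio 0.836), with 32% of its reporter-low UMIs in 1 cell and a ratio of 1.02 without the top cells. Of 19 elastic fibre and adhesive genes, Mfap4 and Thbs1, the adhesive protein thrombospondin (130 and 50 UMIs, 2.35), were at 2 or more, and Thbs1 had a ratio of 0.596 in the remaining cells (18 and 29 UMIs). Timp3, an inhibitor of matrix proteases, was at 380 and 212 CPM (1.79, 1.50 to 2.15), and 1.68 in the remaining cells. Among 8 measured genes of mesenchymal transition, Fn1, fibronectin (62 and 23 UMIs, 2.43, of which the 10 cells held 88.7%), was at 2 or more. At 0.5 or less were 2 of the 8, S100a4 among them.

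The other lists had 1 or no member past 2 or 0.5, apart from chemokines and cytokines. There, Cxcl14 and Cxcl1, a neutrophil attractant (51 and 22 UMIs, ratio 2.09, with 51% of its reporter-high UMIs in 1 cell), were at 2 or more of 10. Junction genes gave 0 of 14, retinoid genes 0 of 9 and Notch genes 0 of 4, where 97.2% of all genes lay between the thresholds. The list of proteases and inhibitors gave Mmp3 alone of 16, the insulin-like growth factor list Igfbp4 alone of 9, the interferon list Irf7 (10 and 20 UMIs, 0.451) of 22, the contractile list Mylk, myosin light chain kinase (39 and 16 UMIs, 2.20), of 9, the lung transcription factor list Tcf21 (61 and 21 UMIs, 2.62) of 22, the lipid list Cebpd of 11 and the acute phase list Cp, ceruloplasmin (41 and 5 UMIs, 7.40, of which the 10 cells held 82.9%), of 10. Without cells with RNA of another type and called doublets, the ratios of Fn1 (0.383), Vegfd (0.602), Mylk (0.659) and Tcf21 (0.649) were below 1.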

How the data were processed

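Lung cells negative for CD45 and CD31 were profiled by droplet 3′ RNA sequencing, with the kit given as version 3 in the sample labels and 3.1 in the series design. The authors' tool was Cell Ranger 3.0.0 with mm10, per the submitters' processing notes. Its deposited output is a matrix of UMI counts that are not normalized, with 31055 features, 11118 barcodes and 85746975 UMIs. A cluster table by the authors holds log2 fold changes per gene, per the file headers, and what each cluster was compared with is not stated in the sources used here. No source used here names the annotation release.

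Kept barcodes had 500 genes or more and no more than 10% of UMIs from mitochondrial genes. UMIs were summed over each set and divided by the set's total (CPM). CPM have exact Poisson intervals, ratios exact conditional binomial intervals and shares Clopper-Pearson intervals, all of which cover counting error only. With 1 pooled library there was no test. Calls at a ratio of 2 or more, or of 0.5 or less, needed 30 UMIs summed over reporter-high and reporter-low cells, and a set without UMIs took a floor of 3. Genes of the rule were left out. Doublets stayed in the main comparison, as the rule has no such filter, and Scrublet (scanpy 1.11.5, expected rate 0.08) was run for an alternative. Code was in Python 3.11.15 with numpy 2.4.6, scipy 1.17.1 and pandas 2.3.3, and the ratio code was tested on simulated data.

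The rule for named genes took, among genes with at least 50 UMIs and a UMI in at least 5 cells of the higher set, the 15 highest lower bounds and the 15 lowest upper bounds of the ratio, leaving out mitochondrial and ribosomal protein genes, all genes of the hedgehog list, and up to 3 members at each end of a list. Genes named for the remaining cells or for the 9 Lgals1- and Csrp2-high cells were chosen after their values had been seen. The members and lists were chosen with earlier results of these data known. In all, 20 alternatives were tried, 17 of them planned and 3 added after the data had been seen. Values of some list members are not reported here, though the list counts include them.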

Additional observations from a re-analysis of the deposited data

Results flagged for a closer look

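For Ptch1 the reporter contrast lay on the other side of 1 in fibroblasts and Hhip-high cells: the ratio of reporter-high over reporter-low cells was 0.733 in mesothelial cells, 1.55 in adventitial fibroblasts, 1.95 in alveolar fibroblasts and 2.87 in Hhip-high cells, and the counting intervals did not overlap. It was also above 1 in alveolar type 2 cells (3.85) and ciliated cells (5.72), few of which were reporter-high. The mesothelial value was 1.37 with each cell thinned at random to 2000 UMIs, which is on the same side of 1 as in the other sets. After such thinning Ptch1 had a UMI in 18 of 100 reporter-high and 11 of 89 reporter-low cells, so the thinned value rests on few UMIs. For Hhip the ratio was 1.80 in mesothelial cells and 0.655 in Hhip-high cells, which a minimum of Hhip UMIs had chosen. With 1 library these differences between kinds of cells were not tested.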

How the results depend on the processing

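No paired analysis was possible because no cell is assigned to a sample, and for the same reason no sample could be left out. With 100 and 89 cells, differences in genes of few UMIs are not detectable at this depth.

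The count of genes at a ratio of 2 or more was 112 of 7102 (1.58%) in the main comparison. It was 70 after 1 to 1 matching on total UMIs, 41 with each cell thinned to 2000 UMIs and 60 without Scrublet doublets. With no UMI minimum it was 817, and with a minimum of 100 UMIs 14. Without cells with 3 or more fibroblast marker UMIs it was 48 of 3560 (1.35%). Without cells with RNA of another type or called doublets it was 58 of 6131 (0.946%). Without those and the 9 Lgals1- and Csrp2-high cells it was 52 of 5966 (0.872%). The count at 0.5 or less, 87 of 7102 (1.23%), was 24 with thinned cells, 922 with no minimum and 10 with a minimum of 100 UMIs. The number of genes tested differs between settings, so counts given without a share cannot be compared directly. Thinning and a higher minimum leave fewer genes to be counted, and otherwise the cause was not tested. The TdTomato ratio stayed below 1 in the alternatives that gave a value, and 5 left under 10 UMIs and gave none.

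Over 171 named genes, 2971 of 3321 values stayed inside the main counting interval, 308 moved outside it and 42, from 18 genes, crossed 1 after a main ratio past 2 or 0.5. Without Scrublet doublets these were Spon2 (0.934), Fn1 (0.573), Thbs1 (0.683), Etv5 (0.657), Vegfd (0.751), Mylk (0.613), Tcf21 (0.722), Scgb1a1 (1.14) and Sec14l3 (1.52). Without cells with RNA of another type or called doublets they were Cxcl14 (0.958), Spon2 (0.903), Inmt (0.703), Fn1 (0.383), Thbs1 (0.632), Vegfd (0.602), Mylk (0.659), Tcf21 (0.649), Scgb1a1 (1.18) and Sec14l3 (1.58). Without either kind of cell they were Inmt (0.640), Thbs1 (0.596), Vegfd (0.549), Mylk (0.600), Tcf21 (0.591), Scgb1a1 (1.17), Sec14l3 (1.44) and Lgals1 (1.18). Inmt, and in the last setting Lgals1, were used to choose cells left out, so their values there are in part set by the choice. Without cells with 3 or more fibroblast marker UMIs they were Ager (0.615), Spon2 (0.848), Mfap4 (0.933) and Fn1 (0.185). Without the 9 Lgals1- and Csrp2-high cells alone they were Fgf1 (1.63), Fndc1 (2.57), Lgals1 (1.84) and Igfbp4 (1.08), of which Lgals1 was used to choose those cells. Scgb1a1 and Sec14l3 had 1.07 and 1.02 against cells with no Egfp UMI and 1.04 and 1.23 at a maximum of 5% mitochondrial UMIs, and Scgb1a1 had 1.01 without the top cells. Cebpd had 0.995 with thinned cells, and Etv5 had 0.793 with 2000 CPM as the upper Egfp threshold. The cause was not tested for these.

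Of the 25 list medians, 105 of 499 alternative values moved by more than 0.1 on the log2 scale.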
